A study of Tupaia belangeri chinensis with 12 samples.

Results

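A set of 6 transcription factors that pattern the developing cortex was followed through the cortical wall of the Chinese tree shrew (Tupaia belangeri chinensis) before birth. They are PAX6, EMX1, EMX2, LHX2, NR2F1 and NR2F2, chosen by name and matched by the exact gene symbol in the deposited tables, where each has a single entry. They are 6 of 81414 gene IDs, and all 6 were among the 14101 genes tested, which had at least 1 scaled FPKM (fragments per kilobase of transcript, corrected for library size and scaled between libraries) in at least 3 of 12 libraries. PAX6 met that filter only through the germinal layers, since none of its CP libraries (0 of 3) reached 1.

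The 12 libraries were made with an mRNA sequencing kit from total RNA of tissue cut by laser out of Nissl-stained frozen sections, with 3 libraries for each of 4 layers. The layers are the ventricular zone (VZ), which lines the ventricle, the inner and outer subventricular zones (ISVZ and OSVZ), and the cortical plate (CP), where neurons settle. All are labelled embryonic day 37, although the tables themselves are named for day 35, and no treatment, strain or genotype is given. Libraries are numbered 1 to 3 in each layer by their labels, which do not say whether the 3 came from separate animals or whether a shared number marks 1 animal, so a p-value here sets a difference against library-to-library spread that may be partly or wholly technical.

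These factors act early in the telencephalon. PAX6, EMX2, LHX2 and the nuclear receptors NR2F1 and NR2F2 (COUP-TFI and COUP-TFII) are expressed in graded fashion across the cortical sheet of other mammals, PAX6 highest towards the front and side and EMX2 and NR2F1 highest towards the back, and the balance between them sets the position and size of cortical areas. EMX1 marks the dorsal, glutamatergic lineage, and LHX2 is a selector of cortical over hem identity. NR2F2 is also known from caudal ganglionic interneurons and from the endothelium of veins.

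Some libraries stood apart in ways that touch the values below. LHX8, a factor of the subpallium, was at 23.35 scaled FPKM in OSVZ 3 and at most 0.513 in the other libraries, and the summed level of 8 Cajal-Retzius genes was 76.7 in OSVZ 3 against 6.81 and 9.92 in OSVZ 1 and 2. CALB2 (37.5) and RELN (27.4) made up most of that sum in OSVZ 3, and CALB2 is also on the list of interneuron genes used below. The choroid plexus gene TTR reached 529 in VZ 1 and 2514 in VZ 2 but 33.75 in VZ 3. Summed over the 15 radial glia genes, libraries of VZ held 1215 to 1342, those of ISVZ 516 to 604, those of OSVZ 357 to 391 and those of CP 125 to 161, while FABP7, a radial glia gene, was listed at 0 in all libraries. The 14 projection neuron genes ran the other way, from 629 to 988 in VZ to 3863 to 4563 in CP. The median half-width of the deposited FPKM bounds was 6.77% to 11.1% across libraries, and read depth is unknown.

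The 6 factors fell into those that dropped in the cortical plate and those whose difference did not pass the test. In CP against the mean of the germinal layers, limma called PAX6, EMX2 and LHX2 lower and none of the 6 higher, where 28.7% of all tested genes were called lower and 24.0% higher. The log2 differences were -3.89 for PAX6, -1.90 for EMX2 and -0.92 for LHX2. NR2F1, NR2F2 and EMX1 did not pass, though NR2F1 was called lower in an alternative fit with the library number as a block. The median log2 difference over the 6 was -0.92, against -0.046 over all tested genes. The 6 were chosen with earlier results of these data known, so comparisons of them with all genes are not independent ones. In bulk tissue, fewer cells that express a gene and less RNA per cell cannot be told apart. Over all 4 layers, limma's F test called PAX6, EMX2 and LHX2, 3 of 6, and 51.8% of all genes. Against single layers, 3 of 6 were lower in CP than in VZ (52.6% of all genes called, 28.7% lower), 2 of 6 lower than in ISVZ (45.9% called, 24.2% lower) and 3 of 6 lower than in OSVZ (31.0% called, 17.3% lower).

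**Figure D1:**
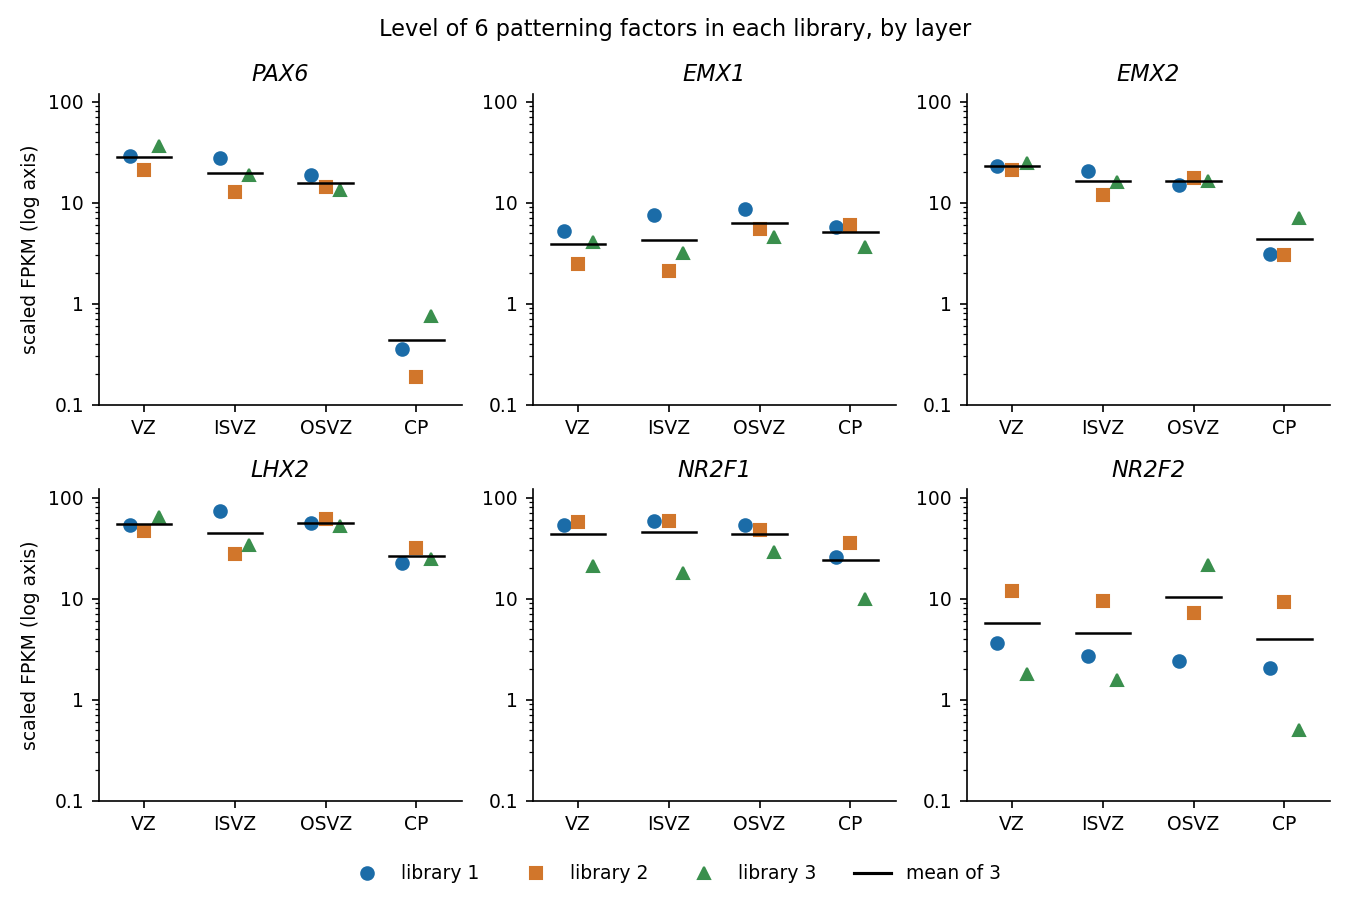
Scaled FPKM (log axis) of each factor in each library, by layer. Points are single libraries, with colour and shape giving the library number, and bars are means of 3 libraries. PAX6 and EMX2 sit lowest in CP, EMX1 stays between 2.10 and 8.71 throughout, and NR2F1 is lowest in library 3 of every layer.

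PAX6, a paired-box factor that governs how radial glia divide and make neurons, is annotated as TSDBGID.11622 on chromosome 18 from 18383835 to 18414550, coordinates as printed in the deposited tables. The VZ libraries 1 to 3 gave 28.6, 21.1 and 36.0 scaled FPKM. The ISVZ libraries gave 27.5, 12.7 and 18.6, and the OSVZ libraries 18.6, 14.4 and 13.4. In CP 1 to 3 it was at 0.353, 0.188 and 0.761, so every CP library lay below every germinal library. Shares of all tested genes whose layers separate in this way were not counted, here or below. The mean fell from 28.6 ± 7.45 (SD, n = 3) in VZ by way of 19.6 ± 7.42 for ISVZ and 15.4 ± 2.76 for OSVZ to 0.434 ± 0.295 for CP. ELP4, which shares 376 bases with PAX6, was at 1.41 to 9.17, and the antisense entry PAX6-AS-1 at most at 0.405 (OSVZ 2).

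On the log2(scaled FPKM + 1) scale, PAX6 in CP fell by 3.89 ± 0.22 (SE) against the germinal mean, with limma adjusted p = 1.70e-07. This scale understates the change of genes near 0. Within the germinal layers the order of the means was VZ, ISVZ, OSVZ, but neighbours did not differ beyond their spread: ISVZ minus VZ was -0.55 ± 0.27 (limma adjusted p = 0.251) and OSVZ minus ISVZ was -0.27 ± 0.27 (limma adjusted p = 0.630). Between the ends, OSVZ was lower than VZ by limma, at -0.83 ± 0.27 (adjusted p = 0.0388), with all 3 OSVZ libraries below all 3 VZ libraries. PAX6 was the only 1 of the 6 called in that contrast, in which 27.9% of all genes were called and 16.2% were lower. The OSVZ call sat at the threshold and was lost in several alternatives, among them without VZ 1 (adjusted p = 0.0862), VZ 3 (0.138), ISVZ 3 (0.0521), OSVZ 2 (0.0952), OSVZ 3 (0.112) or CP 1 (0.0501), with log2 differences of -1.02 to -0.65 when 1 library was left out. The deposited bounds are wide in CP, where the half-width reached 65.3% of the value in CP 2.

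EMX2, a homeobox factor that promotes caudal and medial cortex including the hippocampus, is TSDBGID.8726 on chromosome 15 from 29255988 to 29263558. It was even in VZ, at 23.0, 21.1 and 24.4 scaled FPKM in libraries 1 to 3. ISVZ gave 20.6, 11.8 and 16.2, OSVZ 15.1, 17.5 and 16.5, and CP 3.08, 2.999 and 7.10. All CP libraries were below all germinal libraries, and CP 3 was the highest CP library for EMX2 as it was for PAX6.

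EMX2 in CP fell by 1.90 ± 0.21 on the log2 scale against the germinal mean (limma adjusted p = 1.93e-05), and was lower in CP than in each germinal layer, with adjusted p = 2.38e-05 against VZ, 2.49e-04 against ISVZ and 4.79e-04 against OSVZ. Among the germinal layers, ISVZ minus VZ (-0.50 ± 0.25, limma adjusted p = 0.277) and OSVZ minus VZ (-0.46 ± 0.25, adjusted p = 0.208) did not pass. All VZ libraries lay above all ISVZ and OSVZ libraries, a separation whose share over all tested genes was not counted. ISVZ and OSVZ had nearly the same mean, 16.2 ± 4.38 and 16.3 ± 1.2. An adjoining entry, EMX2li1 (TSDBGID.9138, chromosome 15, 29187710 to 29257322), carries a related name and shares 1334 bases with EMX2. It ran from 8.12 ± 0.493 in VZ through 5.50 ± 1.51 in ISVZ and 5.27 ± 1.19 in OSVZ to 0.835 ± 0.664 in CP, so the levels of both entries are uncertain where reads could have been divided. EMX2li1 in CP fell by 2.01 ± 0.20 against the germinal mean (limma adjusted p = 1.07e-05).

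LHX2, a LIM-homeobox factor that keeps progenitors in a cortical fate, is TSDBGID.13124 on chromosome 2 from 84972972 to 85064533 and overlaps no other annotated gene. Per length, it had the highest mean level of the 6 factors in VZ, OSVZ and CP. VZ 1 to 3 gave 53.3, 46.7 and 64.2 scaled FPKM, and OSVZ 1 to 3 gave 55.6, 61.2 and 52.6. The ISVZ libraries were uneven, with 74.1 in ISVZ 1 against 27.3 in ISVZ 2 and 33.6 in ISVZ 3. In CP it was at 22.7, 31.4 and 24.4, below every VZ and OSVZ library but overlapping ISVZ.

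LHX2 in CP fell by 0.92 ± 0.24 on the log2 scale against the germinal mean (limma adjusted p = 0.00688), to a mean of 26.2 ± 4.63. CP was lower than VZ (-1.04 ± 0.29, adjusted p = 0.0107) and OSVZ (-1.09 ± 0.29, adjusted p = 0.0155), while CP minus ISVZ was -0.64 ± 0.29 and did not pass in limma (adjusted p = 0.0944). The mean in VZ, 54.7 ± 8.83, and in OSVZ, 56.5 ± 4.35, did not differ beyond their spread, with a difference of 0.053 (95% interval -0.59 to 0.69). The place of ISVZ rested on ISVZ 1: without it ISVZ was lower than VZ (-0.82, limma adjusted p = 0.0225) and lower than OSVZ (the OSVZ minus ISVZ difference was 0.87, adjusted p = 0.0281). The F test's call on LHX2 (adjusted p = 0.0248) was lost without CP 1 (0.0908), without CP 3 (0.0794) and without VZ 1 and VZ 2 together (0.0535). The call against OSVZ was lost without OSVZ 2 (0.0511) or CP 1 (0.0525), and CP was called lower than ISVZ without ISVZ 2 (-0.92, adjusted p = 0.0231) but differed by -0.22 without ISVZ 1 (adjusted p = 0.336).

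In ISVZ, PAX6, EMX1, EMX2 and LHX2 were all highest in ISVZ 1 and lowest in ISVZ 2. NR2F1 and NR2F2 were highest in ISVZ 2 and lowest in ISVZ 3. This grouping was made after the values were seen, and the share of all tested genes in either order was not counted. The summed level of the 20 interneuron and subpallial genes was 234 in ISVZ 1, 717 in ISVZ 2 and 623 in ISVZ 3, and SP9, a factor of the subpallial lineage, was at 14.8, 79.3 and 54.7. In the other layers that sum was 384 to 559 in VZ, 152 to 401 in OSVZ and 48.1 to 151 in CP. NKX2-1, which defines the medial ganglionic eminence, was at most 0.365 in any library. Sums for other cell types also differed among ISVZ 1 to 3. They were 656, 476 and 645 for intermediate progenitor genes, and 579, 516 and 604 for radial glia genes. For projection neuron genes they were 1374, 1519 and 1165. The part of any of these cell types in the ISVZ levels was not tested.

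EMX1, a homeobox factor of the dorsal cortical lineage that is retained in projection neurons, is TSDBGID.7094 on chromosome 12 from 52695870 to 52719961. VZ 1 to 3 gave 5.25, 2.49 and 4.06 scaled FPKM, and ISVZ 1 to 3 gave 7.61, 2.10 and 3.14. OSVZ gave 8.71, 5.43 and 4.52, and CP 5.77, 5.97 and 3.66. The layers overlapped throughout. Means were ordered OSVZ (6.22 ± 2.20), CP (5.13 ± 1.28), ISVZ (4.28 ± 2.93) and VZ (3.93 ± 1.38), and no neighbours in that order passed in limma. CP minus the germinal mean was 0.15 ± 0.29 (limma adjusted p = 0.697), with a 95% interval of -0.50 to 0.80 that still allows a modest change either way. The antisense entries on the EMX1 locus were low, at most 0.825 (VZ 1).

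**Figure D2:**
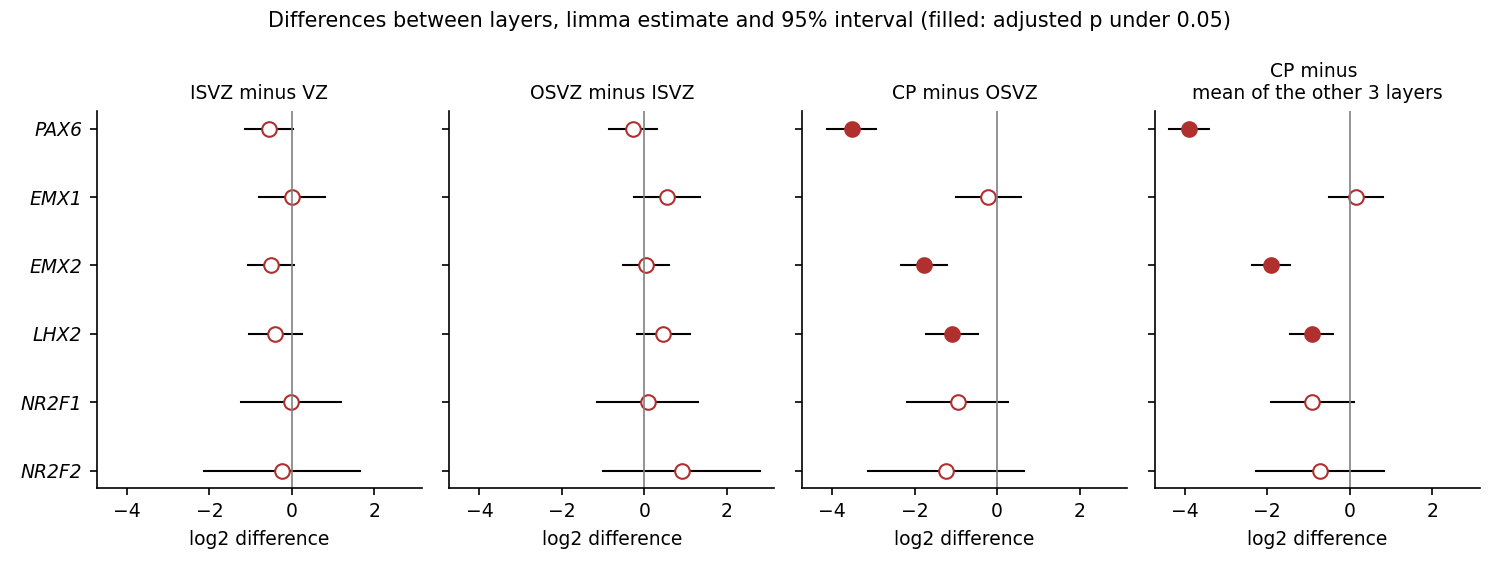
Limma estimates of log2 differences in log2(scaled FPKM + 1) with 95% intervals, for the steps between neighbouring layers and for CP against the mean of the other layers. Filled points have adjusted p under 0.05: they appear only in the steps to CP, for PAX6, EMX2 and LHX2, while the intervals of NR2F2 are the widest.

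NR2F1, an orphan nuclear receptor that promotes caudal, sensory identity, is TSDBGID.6427 on chromosome 11 from 81152232 to 81165930. Per length, only LHX2 and NR2F1 held the upper ranks of the 6 means in each of the 4 layers. VZ 1 to 3 gave 52.9, 57.8 and 21.1 scaled FPKM. ISVZ repeated this spread with 58.6, 59.0 and 17.7, OSVZ had 53.2, 47.9 and 28.8, and CP 26.0, 35.5 and 10.01. In each of the 4 layers the library numbered 3 was therefore the lowest. Among all tested genes, 10.98% had the same-numbered library lowest in all 4 layers and 2.62% had library 3 lowest in all 4.

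For NR2F1 the means were 43.9 ± 20.0 (VZ), 45.1 ± 23.7 (ISVZ), 43.3 ± 12.8 (OSVZ) and 23.9 ± 12.9 (CP). The germinal means differed by less than the SD of any germinal layer. CP minus the germinal mean was -0.91 ± 0.45 and did not pass (limma adjusted p = 0.115, 95% interval -1.91 to 0.090). The value moved when single libraries were left out: it passed without ISVZ 3 (-1.09, limma adjusted p = 0.0387), and was -0.40 without CP 3 (adjusted p = 0.513) and -1.27 without CP 2. Leaving out 1 library also unbalances the library numbers. Within each library number, CP was the lowest layer. With the number as a replicate block, limma called NR2F1 lower in CP than the germinal mean (-0.91, adjusted p = 6.48e-04). The labels do not say what the number marks. The gene overlaps an antisense entry, TAF1D-AS-2, over 3058 bases, which ranged from 2.62 to 8.87 (ISVZ 2). No source used here says whether counting used strand, and reads of the shared part cannot be told apart.

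NR2F2, the sister receptor of NR2F1, is TSDBGID.16166 on chromosome 23 from 47585495 to 47967292. This entry spans 381797 bases and overlaps 5 intergenic noncoding entries, none of which reached the filter (highest 0.783, OSVZ 3), and its level per length is uncertain. VZ 1 to 3 gave 3.597, 11.8 and 1.78 scaled FPKM, ISVZ 1 to 3 gave 2.68, 9.38 and 1.57, and CP 1 to 3 gave 2.07, 9.32 and 0.503. In these 3 layers library 2 was the highest and library 3 the lowest. OSVZ broke the pattern, with 2.42, 7.18 and 21.7, the last being the highest value of the gene. The means were 5.73 ± 5.34 (VZ), 4.54 ± 4.22 (ISVZ), 10.4 ± 10.1 (OSVZ) and 3.97 ± 4.70 (CP), each with an SD near or above the mean.

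No difference of NR2F2 among layers was detected by limma's F test (adjusted p = 0.607), and CP minus the germinal mean was -0.73 ± 0.70 (adjusted p = 0.409, 95% interval -2.27 to 0.82). That difference ran from -1.48 without CP 2 to -0.093 without CP 3, and did not pass whichever library was left out (lowest limma adjusted p = 0.129). OSVZ minus VZ was 0.65 ± 0.86 with all libraries and -0.050 without OSVZ 3 (limma adjusted p = 0.623 and 0.977). Some genes of other cell types were high in OSVZ 3 as well, and others were not. Of the 20 interneuron and subpallial genes, 10 were highest in OSVZ 3 among the OSVZ libraries and 6 were lowest there. The same shares over all tested genes were not counted. CALB2, a calcium-binding protein of interneurons and Cajal-Retzius cells, was at 37.5 in OSVZ 3 against 3.503 and 5.36 in OSVZ 1 and 2, SST, a peptide of interneurons, at 152 against 18.6 and 48.6, and SLC32A1, the vesicular GABA transporter, at 42.3 against 4.20 and 6.84. In contrast, VIP, a peptide of caudal ganglionic interneurons, was lowest in OSVZ 3, at 1.82 against 4.36 and 5.54, as was PROX1, a factor of the same interneurons, at 1.58 against 1.90 and 2.33, and SP9 was at 10.3 against 5.36 and 11.99. SIX3 and PBX3, factors of the ventral telencephalon, were at 14.0 and 21.6 in OSVZ 3 and at most 0.116 and 1.74 in OSVZ 1 and 2, though in VZ and ISVZ they reached 17.1 and 15.1. The summed level of the 14 genes of endothelium and mural cells ranged over 46.8 to 54.2 for OSVZ, 54.5 to 57.5 for VZ, 40.3 to 55.8 for ISVZ and 19.0 to 33.9 for CP, and PECAM1 was at 4.07 to 4.91 in OSVZ.

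The high NR2F2 of library 2 in VZ, ISVZ and CP moved with some interneuron genes and not others. Library 2 was the highest of its layer for 11 of the 20 genes in each of these layers, and the share over all tested genes was not counted. VIP was highest in library 2 in VZ (27.2) and ISVZ (38.4) but not in CP, where CP 1 to 3 gave 9.28, 4.76 and 0.0317. PROX1 was at 3.61, 4.97 and 1.84 in VZ 1 to 3 and at 1.79, 7.71 and 2.21 in ISVZ 1 to 3, highest in library 2 as NR2F2 was, but at 0.673, 0.578 and 0.0199 in CP 1 to 3. CALB2 was highest in CP 2, at 10.02 against 1.41 and 0.883. The part of interneurons in the level of NR2F2 was not tested.

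**Figure D3:**
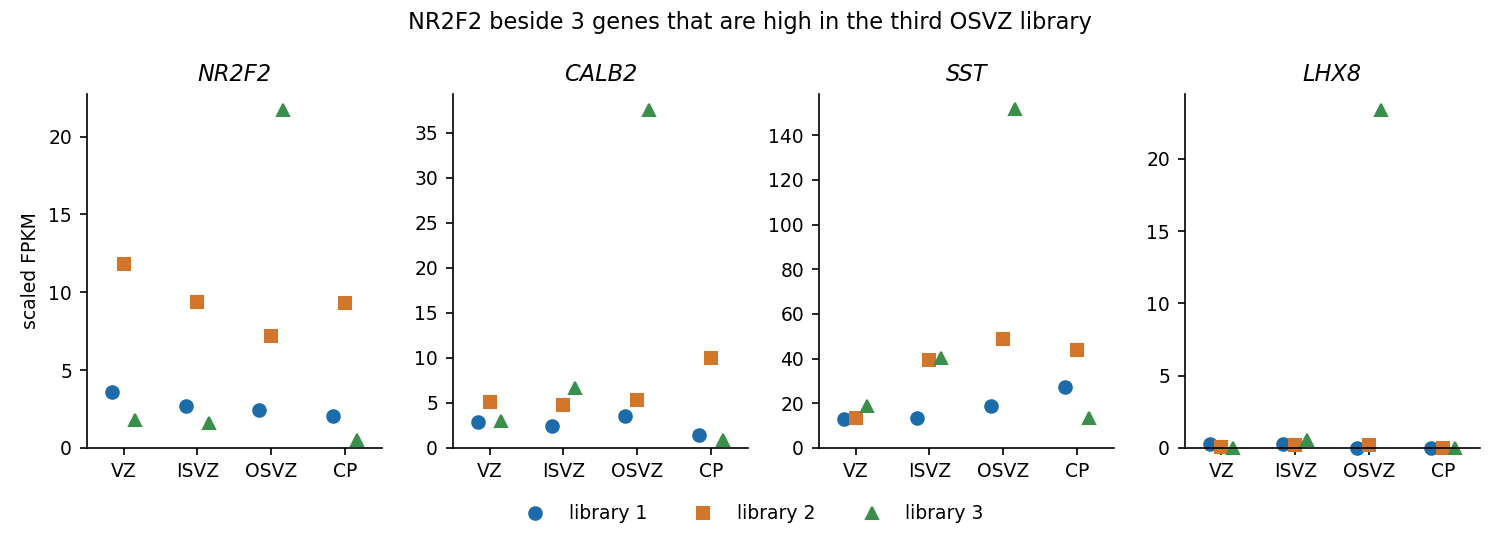
Scaled FPKM of NR2F2, CALB2, SST and LHX8 in each library, by layer, on linear axes that differ between panels. CALB2, SST and LHX8 were picked because they are high in OSVZ 3. VIP and PROX1, which are not shown, were lowest in OSVZ 3 among the OSVZ libraries. OSVZ 3 holds the highest value of each gene, 21.7 for NR2F2 and 23.35 for LHX8, and NR2F2 is otherwise highest in library 2.

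Ratios within a library compare how 2 factors changed together, and 3 were tested, each with 1 added to both scaled FPKM values. EMX1 and EMX2 differed in their course. The log2 ratio of EMX1 to EMX2 averaged -2.31 ± 0.36 over VZ (SD, n = 3), -1.81 ± 0.42 over ISVZ, -1.30 ± 0.50 over OSVZ and 0.25 ± 0.90 over CP. EMX2 exceeded EMX1 in all 9 germinal libraries, and EMX1 exceeded EMX2 in CP 1 and CP 2 but not in CP 3, where EMX2 was at 7.10. An exact permutation test of the F statistic over all 369600 assignments of libraries to layers gave p = 0.00396, adjusted p = 0.0119 over the 3 ratios.

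The ratio of PAX6 to NR2F1, factors with opposed gradients in other mammals, averaged -0.51 ± 1.12 over VZ, -1.04 ± 1.09 over ISVZ, -1.40 ± 0.31 over OSVZ and -3.97 ± 1.19 over CP (log2, SD, n = 3). It differed among layers (exact permutation p = 0.0118, adjusted p = 0.0177). PAX6 in CP was at 0.188 to 0.761, below the added 1, so the size of the CP ratio depends on that choice. In each layer library 3 had the highest ratio, with 0.74 against -0.86 and -1.41 in VZ, 0.061 against -1.07 and -2.13 in ISVZ, -1.05 against -1.47 and -1.67 in OSVZ, and -2.65 against -4.32 and -4.94 in CP. Library 2 had the lowest in each layer.

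The ratio of NR2F1 to NR2F2 was above 0 in all 12 libraries, and no difference among layers was detected (exact permutation p = 0.838, adjusted p = 0.838). Its means lay between 2.32 ± 1.81 in OSVZ and 3.14 ± 0.78 in ISVZ. The lowest value was 0.39 in OSVZ 3, where the sister receptors came nearest to each other, at 28.8 and 21.7 scaled FPKM. The level of NR2F2 per length is uncertain, so the size and sign of this ratio are uncertain too.

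**Figure D4:**
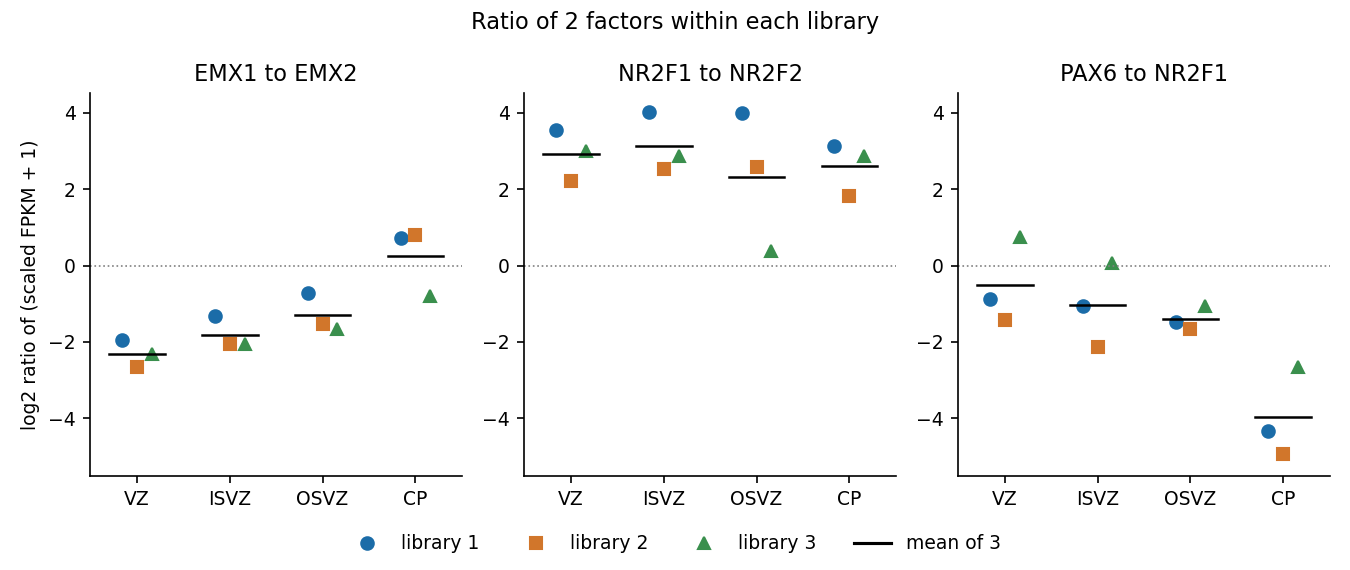
Log2 ratio of (scaled FPKM + 1) of 2 factors within each library, by layer, with bars at the mean of 3 libraries. EMX1 to EMX2 crosses 0 in CP 1 and CP 2, NR2F1 to NR2F2 is above 0 in all 12 libraries, and PAX6 to NR2F1 is highest in library 3 of every layer.

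Other transcription factors of cortical patterning give the setting, from a list of 26 such genes of which 25 were tested. In CP against the germinal mean 19 were lower and 6 higher by limma, with a median of -1.58, so each of the 25 passed where 52.7% of all genes did. The list was chosen with earlier results of these data known. It also shares genes such as GLI3, EOMES and TBR1 with the lists of cell type markers. The comparison with all genes is therefore not an independent one. Several of those lower in CP also met the filter only through the germinal layers, where they are high. Among them were GLI3, SALL3, DMRTA2 and EOMES, with CP means of 0.0856, 0.129, 0.214 and 0.232. The zinc finger factors SALL1 and SALL3 (-3.40 ± 0.17 and -2.97 ± 0.16), and GLI3, which restrains ventral fate (-2.78 ± 0.21), were among the largest drops, as was EOMES of intermediate progenitors (-5.38 ± 0.23). DMRTA2, a factor of caudomedial cortex, was at 7.84 ± 0.495 in VZ and 0.214 ± 0.0341 in CP (-2.57 ± 0.15). Among the 6 higher in CP were BHLHE22, a factor of area identity in postmitotic neurons (2.12 ± 0.36), LMO3 (1.40 ± 0.20), LMO4 (1.204 ± 0.26), TBR1 (0.79 ± 0.26) and BCL11A (0.50 ± 0.17). PBX3 and SIX3, lower in CP by -2.42 ± 0.61 and -2.62 ± 0.79, are 2 of the genes high in OSVZ 3.

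**Figure D5:**
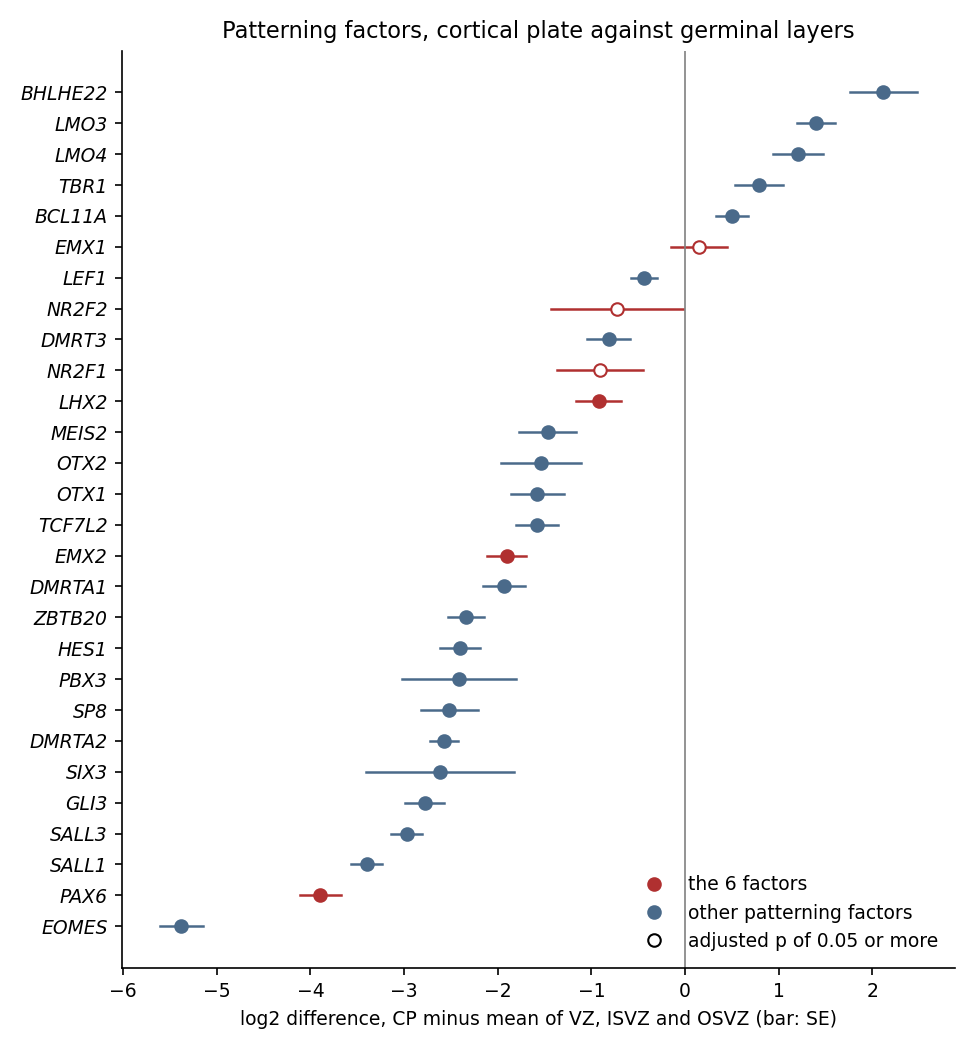
Log2 difference between CP and the mean of the germinal layers, with SE, for the 6 factors (red) and other patterning factors of the list (blue, those not reported here by name left out). EMX1, NR2F1 and NR2F2, with open symbols, are those plotted that did not pass, and PAX6 at -3.89 lies next to EOMES at the low end. The fit shown had no block for the library number.

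In OSVZ against VZ, 9 of those 25 were lower and 4 higher, and 12 did not pass, where limma called 16.2% of all genes lower and 11.7% higher. In ISVZ against VZ, 5 were lower and 1 higher, where limma called 8.72% of all genes (1.54% higher, 7.18% lower), and none of the 6 factors passed there. None passed in OSVZ against ISVZ either (0 of 6 by limma, where 0.603% of all genes were called, 0.482% higher and 0.121% lower). The lowest unadjusted limma p of the 6 factors was 0.0623 in ISVZ minus VZ (PAX6) and 0.148 in OSVZ minus ISVZ (LHX2).

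Relatives and partners of the factors, a list of 24 genes with 14 tested, were split, with 5 higher and 5 lower in CP and 4 that did not pass, where 24.0% of all genes were higher and 28.7% lower. NR2E1, the tailless receptor of neural stem cells and a relative of NR2F1, averaged 41.3 ± 6.16 over VZ, 15.9 ± 2.16 over ISVZ, 8.58 ± 0.436 over OSVZ and 0.396 ± 0.136 over CP (log2 -3.76 ± 0.11 against the germinal mean, limma adjusted p = 6.91e-09). NR2E1 met the filter only through the germinal layers. NR2F6 of the same family did not pass (0.24 ± 0.20, limma adjusted p = 0.347). Among cofactors of LIM-homeobox proteins, LDB1, the adaptor that LHX2 binds, was lower by -0.33 ± 0.077, while LDB2 (1.25 ± 0.22) and SSBP2, which stabilises LDB proteins (1.79 ± 0.13), were higher. LMO1, a LIM-only protein, was lower (-2.08 ± 0.41), and LMO3 and LMO4 were higher. ZFPM2, a partner of NR2F2 in heart and other tissues, was higher (1.27 ± 0.27) from 0.657 ± 0.140 in VZ to 4.23 ± 2.69 in CP. PAX2, PAX3 and PAX7 were at most 0.133 in any library.

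The genes with the most similar profile over the 12 libraries were named by Pearson's r on the log2 scale among 12393 tested genes with a symbol. These r are descriptions that share the layers, and many genes differ between layers. PAX6 was closest to DMRTA2 (r = 0.993), TFAP2C (0.993) and NEUROG1 (0.992), and 949 genes reached 0.9. EMX2 was closest to REPIN1 (0.995), its neighbour EMX2li1 (0.989) and ATG7 (0.982), with 575 genes at 0.9 or more. For LHX2 these were PRDM11 (0.935), C16ORF96 (0.934) and TMEM86A (0.929), and 7 genes reached 0.9.

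NR2F1 was alone with THRB, the thyroid hormone receptor beta, at 0.9 or more (r = 0.953). THRB was low, with 1.97, 2.04 and 0.338 for VZ 1 to 3, 2.04, 3.06 and 0.391 for ISVZ, 2.41, 2.35 and 0.979 for OSVZ and 0.953, 1.70 and 0.188 for CP. It was lowest in library 3 of each layer, as NR2F1 was. Because THRB was picked for its likeness to NR2F1, this shared order follows in part from the selection. Next came C1GALT1C1li1 (0.893) and DCAF7 (0.879). EMX1 was closest to TSORFli536 (0.920), PUS3 (0.888) and ZNF202 (0.870). NR2F2 had no gene at 0.9, and its closest were PNOC (0.845), LIMS2 (0.839) and MRPL41 (0.811). PNOC, a neuropeptide precursor found in interneurons, was at 6.76 in OSVZ 3 and at most 3.66 in the other libraries. It was picked for its likeness to NR2F2, which is highest in OSVZ 3, so this value follows in part from the selection.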

How the data were processed

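Each library has 1 table of FPKM per gene from the authors, deposited with a confidence interval, in a Cufflinks layout per the file headers. The submitters' processing notes name HISAT2 and Cufflinks; no source used here gives versions, build, annotation or strand setting. Entries sharing an ID were summed (360 IDs), and 4 of 81418 IDs with a failed status were left out. Libraries were scaled by a median-of-ratios factor (0.947 to 1.06, from 10200 genes at 1 FPKM or above throughout). Genes reaching 1 in 3 or more libraries entered a limma fit (version 3.58.1, R 4.3.3) on log2(scaled FPKM + 1): 1 model over 4 layers and all 12 libraries, an intensity trend, 8 residual degrees of freedom, two-sided tests and Benjamini-Hochberg adjustment over 14101 genes (threshold 0.05). Ratios of 2 factors were tested by exact permutation and adjusted over 3 ratios. The fit was tested on simulated data.

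Summed FPKM was 244666 to 276629 per library, and 0 pairs of libraries held identical values. The factors and the 11 gene lists (156 distinct genes) were chosen with earlier results of these data known. The genes named are the 6 factors, entries overlapping them, the 3 most similar genes of each, and from each list up to 6 with the largest differences, up to 3 that did not pass, and defining markers near 0. Other list genes named (such as factors higher in CP, LDB1, LDB2, FGF18, WNT7B, WNT8B, FGF8, FGF17, the factors lowest or highest by library number, and the markers given by library) were chosen after their values were seen. Some list genes are counted but not reported here by name. No sequences are printed. Alternatives covered scaling, pseudocount, filter, trend, replicate block, EMX2 summed with EMX2li1, and leaving out libraries; leaving out VZ 1 and VZ 2 together was added after seeing the data.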

Additional observations from a re-analysis of the deposited data

How the results depend on the processing

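Over 22 alternatives, 997 of 1056 differences and F tests of the 6 factors kept their direction and side of the threshold, 18 lost a call, 9 gained one and 32 reversed, and the reversed differences were uncalled. The PAX6 call in OSVZ against VZ was lost with quantile normalisation (adjusted p = 0.0511), equal totals (0.0520), a pseudocount of 0.1 (0.115), no filter (0.136) and without VZ 1 and VZ 2 together (0.0772), each leaving 0 of 6 factors called there. LHX2 lost its F test (0.109) and its CP minus OSVZ call (0.0706) with no filter, the latter also without OSVZ 2 (0.0511) or CP 1 (0.0525), and gained a call in CP minus ISVZ without ISVZ 2 (-0.92, adjusted p = 0.0231).

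Genes called in ISVZ minus VZ numbered 1229, and 787 with no filter, 715 with a filter of 5 and 71 once VZ 1 and VZ 2 were left out. In OSVZ minus ISVZ they numbered 85, and 54 with FPKM as deposited, 231 with quantile normalisation, 38 with equal totals, 19 with a pseudocount of 0.1, 8 with no filter, 299 with a filter of 5 and 21 once VZ 1 and VZ 2 were left out. That last setting left 1171 of 3935 in OSVZ minus VZ and 4924 of 7413 in CP minus VZ. Leaving out 1 library gave 389 to 1384 genes in ISVZ minus VZ, 2 to 552 in OSVZ minus ISVZ, 2558 to 3983 in OSVZ minus VZ and 6454 to 7468 in CP minus VZ. Factors called were 0 to 1 of 6 in ISVZ minus VZ, 0 to 1 in OSVZ minus ISVZ and 0 to 1 in OSVZ minus VZ. The cause of these shifts was not tested.

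Reversed log2 differences were, with quantile normalisation, EMX1 0.12 and NR2F1 0.018 in ISVZ minus VZ. Without VZ 1 and VZ 2 they were NR2F1 0.0048 and NR2F2 0.38 in CP minus VZ, NR2F1 0.88 and NR2F2 0.73 in ISVZ minus VZ, and LHX2 -0.19 in OSVZ minus VZ. Leaving out 1 library moved NR2F2 over -1.10 to 0.29 in CP minus ISVZ, -1.35 to 0.042 in CP minus VZ, -0.83 to 0.37 in ISVZ minus VZ and -0.050 to 1.32 in OSVZ minus VZ (1.63 without both VZ 1 and VZ 2). NR2F1 moved over -0.47 to 0.54 in ISVZ minus VZ, -0.48 to 0.36 in OSVZ minus ISVZ and -0.39 to 0.32 in OSVZ minus VZ (0.96 without both). EMX1 moved over -0.39 to 0.019 in CP minus OSVZ and -0.42 to 0.31 in ISVZ minus VZ, EMX2 over -0.15 to 0.22 in OSVZ minus ISVZ, and LHX2 over -0.053 to 0.17 in OSVZ minus VZ. The uncalled CP difference in the ratio of NR2F1 to NR2F2 was 0.12 with a pseudocount of 0.1 and -0.50 to 0.21 without 1 library.

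Libraries with the same number deviated together, with r over 0.1, in 16 of 18 pairs. Over all 18 pairs r ran from 0.0629 to 0.425, against -0.363 to 0.175 for other numbers. In addition, 12 of 12 libraries were closest to their own number, a hint from the data and not from the design. With the number as a replicate block, limma called NR2F1 lower in CP against the germinal mean (-0.91, adjusted p = 6.48e-04), OSVZ (-0.95, 0.00363), VZ (-0.90, 0.0022) and ISVZ (-0.87, 0.00323), and in the F test (adjusted p = 0.00389). The block changed no other call of the 6 factors, and called 206 genes in OSVZ minus ISVZ. Depth is unknown, and PAX6 in CP has the widest bounds.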

Other observations

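The signals that set up cortical patterning in other mammals were measured with a list of 23 genes, of which 22 were found and 13 tested. In CP against the germinal mean 9 were lower and 3 higher by limma, and BMP4 did not pass, where 28.7% of all genes were lower and 24.0% higher. The FGF receptors FGFR2 (-2.66 ± 0.11) and FGFR3 (-2.89 ± 0.28) and the secreted Wnt modulator SFRP1 (-2.78 ± 0.22) were lower, SFRP1 running from 241 ± 3.36 scaled FPKM in VZ (SD, n = 3) to 20.7 ± 9.16 in CP. FGFR3, with a CP mean of 0.541, met the filter only through the germinal layers. FGF18 (0.99 ± 0.14), WNT7B (1.15 ± 0.31) and RSPO3 (1.70 ± 0.48) were higher. FGF8 and FGF17, ligands of the rostral signalling centre, were at most 0.274 and 0.0283 in any library. WNT8B, a ligand of the cortical hem, was at 5.20 ± 6.10 in VZ with its highest value of 12.2 in VZ 2, the library with the most TTR.

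Of the 25 patterning factors tested beside the 6, the same-numbered library was lowest in all 4 layers for 3, which were OTX1, EOMES and BCL11A, each lowest in library 2, and highest in all 4 for 2, among them DMRTA1 (library 1). Over all tested genes these shares were 10.98% and 9.60%.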
